A study of Homo sapiens with 28 samples.

Results

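Histone genes were followed in H9, an established line of human embryonic stem cells, as it differentiated toward neural cells with or without SOX1, a transcription factor of early neural progenitors. The members are protein-coding genes of the deposited table named HIST1H, HIST2H, HIST3H or HIST4H (called clustered below) and those named H1F, H2AF or H3F (called replication-independent below). A gene entered where it reached 1 TPM, a share of a library's transcripts corrected for gene length, in at least 2 of 28 libraries. That left 70 of 88 candidate rows among 58219 genes in the table: 59 of 72 clustered and 11 of 16 replication-independent genes. Of the 70 members, 20 reached 1 TPM in all 28 libraries, 10 of each class, and 14 did so in only 2 to 5 libraries, 13 of them clustered. The candidates that missed the threshold by 1 library were HIST1H2BB, HIST1H2BF, HIST1H3I, HIST1H4F, H2AFB1 and a further row named HIST1H3D, with highest values between 1.12 and 1.88 TPM. The other candidates left out were HIST2H3PS2, H1FOO, HIST1H2AA, HIST1H2BA, HIST1H1A, HIST1H3C, HIST1H1T, HIST1H4G, HIST1H4K, H3F3C, H1FNT and H2AFB2.

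Poly(A)-selected RNA was sequenced from 14 groups of 2 libraries. The knockout (KO) groups are SOX1-/- H9 cells and the wild-type (WT) groups are H9 cells with intact SOX1. Each genotype was sampled as embryonic stem cells on day 0 (ES below) and on days 4 and 8 of neural differentiation under 3 culture labels: CT0.4, CT1.0 and IWP2. The last is the name of a compound that blocks the release of WNT proteins, while CT is neither spelled out nor given a unit for its number. Every KO group has a library numbered 26 and one numbered 48, and every WT group has libraries numbered 1 and 2. These are called lines below, although the labels do not say whether a number marks a separate clone, culture or passage. The p-values therefore measure the spread between these libraries, which may be technical.

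Histones are the proteins that DNA is wound around, H2A, H2B, H3 and H4 in the nucleosome core and H1 on the linker. The clustered genes supply most histone protein while DNA is replicated, and their mRNAs normally end just after a conserved stem-loop, without a poly(A) tail. The replication-independent genes encode variants such as H2A.Z, macroH2A, H3.3 and H1.0, which are made throughout the cell cycle from ordinary polyadenylated mRNAs. Poly(A) selection keeps the ordinary mRNAs and, of the clustered genes, mainly those transcripts that run past the stem-loop to a poly(A) signal, which are known to become commoner as cells leave the cell cycle and differentiate. A clustered value below is therefore the level of poly(A)-selected RNA, not of all histone mRNA. In bulk RNA, fewer cells of a type and less RNA per cell cannot be told apart.

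The stem-loop was looked for in the 3′ untranslated region (UTR) of each member's GENCODE 29 transcripts (GRCh38), on the transcribed strand, as the 16-base histone stem-loop motif with 6 pairs and a 4-base loop. It was found in 31 of 59 clustered members (52.5%) and in 1 of 11 replication-independent members (9.09%), H2AFX. Among 19940 protein-coding genes of the annotation, 85 (0.426%) hold it. In 25 clustered members the annotated model has no 3′ UTR, so a loop could not be seen there. The 10 loops below belong to members the results turn on. Capitals mark the stem, and the letters are DNA, 5′ to 3′.
HIST2H2BE, chr1:149886188-149886203, minus strand: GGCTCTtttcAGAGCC
HIST1H2AC, chr6:26124669-26124684, plus strand: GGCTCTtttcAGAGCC
HIST1H2BD, chr6:26158587-26158602, plus strand: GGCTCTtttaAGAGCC
HIST2H2BF, chr1:149811885-149811900, minus strand: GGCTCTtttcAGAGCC
HIST3H2BB, chr1:228458538-228458553, plus strand: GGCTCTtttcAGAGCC
HIST1H2BG, chr6:26216218-26216233, minus strand: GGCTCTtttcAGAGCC
HIST3H2A, chr1:228457369-228457384, minus strand: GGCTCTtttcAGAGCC
HIST1H2BH, chr6:26252055-26252070, plus strand: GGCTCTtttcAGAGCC
HIST1H4J, chr6:27824459-27824474, plus strand: GGCCCTtttcAGGGCC
H2AFX, chr11:119094898-119094913, minus strand: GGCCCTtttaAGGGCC
The most frequent form, shown for HIST1H2AC, occurs in 17 of the 31 clustered members with a loop. The annotated transcript of HIST1H4J ends 6 bases after its loop. Those of HIST1H2AC, HIST2H2BE and HIST3H2BB go on for up to 1128, 1729 and 1917 bases. In HIST1H2BD the loop is followed by 39 bases, while another transcript splices past it. Of the 31 clustered members with a loop, 2 have no annotated transcript that goes on more than 10 bases after it, and 20 have one that goes on for at least 300 bases. H2AFX, the H2A.X variant that is phosphorylated at DNA breaks, also carries the loop and an annotated tail of 1044 bases.

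The 250 bases before the start of 3 clustered genes are shown because they had the 3 highest log2 fold changes among clustered members called between genotypes, and their letters carry the promoter elements known for histone genes. The sequences are RefSeq's (GRCh38.p14), and capitals mark the CCAAT element, the TATA element TATAAA and the octamer ATTTGCAT, on either strand.
HIST1H2AC, chr6:26123922-26124171, plus strand: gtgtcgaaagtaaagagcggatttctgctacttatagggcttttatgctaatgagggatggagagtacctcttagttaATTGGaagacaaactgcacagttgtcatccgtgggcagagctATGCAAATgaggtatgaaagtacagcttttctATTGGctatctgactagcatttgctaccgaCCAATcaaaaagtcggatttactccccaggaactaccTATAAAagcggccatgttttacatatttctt
HIST2H2BE, chr1:149886683-149886932, minus strand: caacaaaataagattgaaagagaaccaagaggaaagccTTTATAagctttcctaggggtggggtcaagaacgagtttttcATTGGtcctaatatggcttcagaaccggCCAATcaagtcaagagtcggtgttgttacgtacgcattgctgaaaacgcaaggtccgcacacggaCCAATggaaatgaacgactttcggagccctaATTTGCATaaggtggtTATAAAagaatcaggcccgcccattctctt
HIST1H1D, chr6:26234988-26235237, minus strand: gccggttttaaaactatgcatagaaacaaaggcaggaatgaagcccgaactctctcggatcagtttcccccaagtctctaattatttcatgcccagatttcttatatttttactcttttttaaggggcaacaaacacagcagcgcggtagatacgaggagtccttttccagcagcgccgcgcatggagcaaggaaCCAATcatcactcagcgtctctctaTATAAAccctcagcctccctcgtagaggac
A RefSeq window of 300 bases, 250 before and 50 after the start, was matched for 61 of the 70 members. CCAAT stands in 84.3% of the 51 clustered windows and in 34.6% of all 35116 RefSeq windows. TATAAA stands in 66.7% of the clustered windows and 11.5% of all windows. The octamer stands in 63.6% of the 11 windows of clustered H2B genes, in 27.5% of the 40 other clustered windows and in 1.77% of all windows. Among the 10 replication-independent windows, 70% hold CCAAT, 40% TATAAA and 10% the octamer. Some windows overlap, as those of the neighbours HIST2H2BE and HIST2H2AC, and HIST3H2A and HIST3H2BB, do. A match is a description of letters, not of binding.

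Most histone TPM in these libraries came from the replication-independent genes. Their summed TPM per library was 3677 to 5400 (median 4898), against 143 to 322 (median 215) for the clustered genes, which made up 2.72 to 6.94% of the sum over all members. The 9 replication-independent members with a mean of at least 100 TPM include H3F3A and H3F3B, which both encode H3.3, and H2AFZ, which encodes H2A.Z. The mean TPM of a member over all libraries was 0.499 to 1347 in this class and 0.194 to 66.6 among clustered members, of which 25 averaged under 1 TPM. Among the clustered types, H4 had the highest mean summed TPM (92.4, 12 members), then H2A (57.3, 16 members), H2B (42.6, 15 members), H1 (17.6, 4 members) and H3 (10.8, 12 members). HIST1H4J alone (ENSG00000197238.4, chr6:27824108-27824480, plus strand) supplied 16.3 to 43.8% of the clustered sum. Its group means lay between 44.1 TPM in KO CT0.4 on day 8 and 97.6 TPM in WT IWP2 on day 4. It shares 82.2% of its 31-base stretches with HIST1H4K, which was listed at 0 in all 28 libraries, so the estimate may hold reads of both. Of the 59 clustered members, 15 share at least 50% of their stretches with other genes, among them HIST1H2BK (74.4% with H2BFS), and so does 1 of 11 replication-independent members.

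By group means, the clustered sum was highest on day 4 and lowest on day 8 with CT0.4, in both genotypes. On day 0 it was 224 and 215 TPM in KO lines 26 and 48, against 159.6 and 201 TPM in WT lines 1 and 2. On day 4 it was 265 and 247 TPM in KO and 322 and 307 TPM in WT with IWP2, 259.8 and 264 TPM in KO and 258 and 229.9 TPM in WT with CT0.4, and 314 and 279.6 TPM in KO and 257 and 215 TPM in WT with CT1.0. On day 8 it was 235 and 196 TPM in KO and 210.2 and 208 TPM in WT with IWP2, 143 and 149.7 TPM in KO and 156 and 149.8 TPM in WT with CT0.4, and 175 and 189 TPM in KO and 183 and 171 TPM in WT with CT1.0. KO lay above WT without overlap on day 0 and with CT0.4 and CT1.0 on day 4, and below WT without overlap with IWP2 on day 4. With CT0.4 on day 8 the genotypes all but met, at 149.743 TPM in KO line 48 and 149.755 TPM in WT line 2. The genotypes overlapped with IWP2 and CT1.0 on day 8. With 2 libraries against 2, the smallest 2-sided p an exact permutation test can give is 0.333, so the sums are described and not tested. The log2 ratio of the clustered sums, KO over WT, was 0.33 with CT1.0 on day 4 and 0.06 when the libraries were scaled by median-ratio size factors. With CT0.4 on day 4 that scaling turned it to −0.10, against 0.10 as deposited. The replication-independent sum was higher in every library of days 4 and 8 than in the 4 ES libraries, which had 3677 to 3814 TPM. Its log2 ratio on day 8 against ES was 0.48, 0.42 and 0.05 in KO, and 0.51, 0.51 and 0.11 in WT, with IWP2, CT0.4 and CT1.0. On the scaled values these became 0.20, 0.15 and 0.04 in KO, and 0.22, 0.25 and −0.03 in WT.

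**Figure D1:**
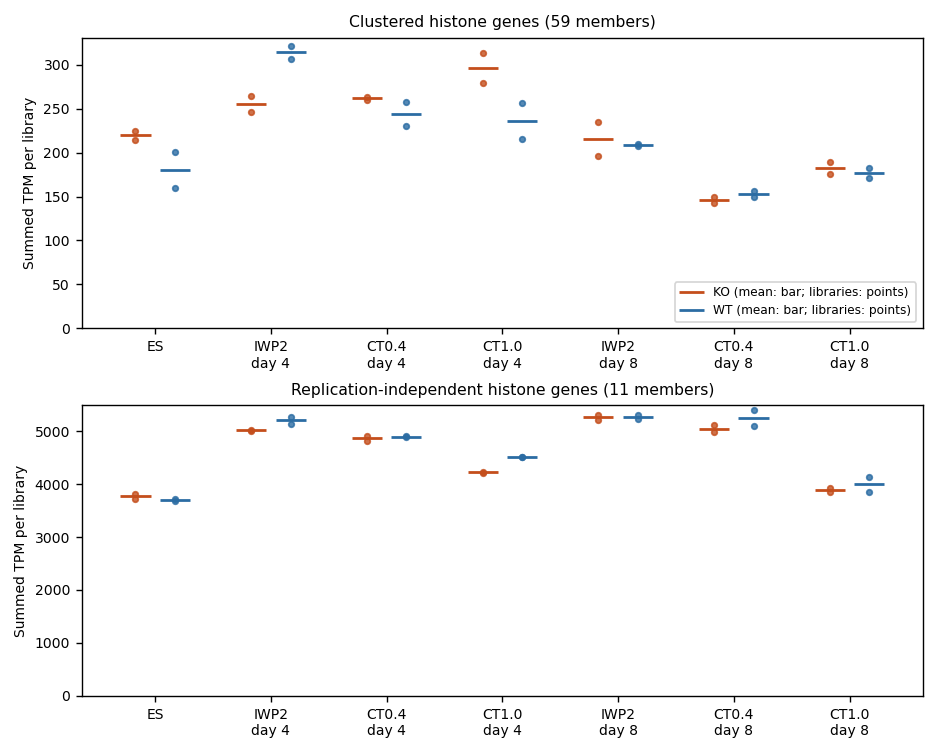
Summed TPM of the 59 clustered (upper panel) and 11 replication-independent (lower panel) histone genes by group, KO left of WT, with a point per library and a bar at the mean of 2. The clustered sums lie between 143 and 322 TPM and are lowest with CT0.4 on day 8, while the replication-independent sums lie between 3677 and 5400 TPM and are lowest in ES.

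The targeted gene was lower in KO with both CT labels on days 4 and 8. SOX1 had 0.705 and 3.08 TPM in KO lines 26 and 48, against 84.1 and 98.0 TPM in WT lines 1 and 2 with CT1.0 on day 4, and 1.14 and 2.77 TPM in the KO lines, against 72.1 and 79.4 TPM in the WT lines with CT1.0 on day 8. With CT0.4 it had 0.866 and 1.49 TPM in the KO lines, against 4.88 and 7.01 TPM in the WT lines on day 4, and 0.813 and 2.09 TPM in the KO lines, against 11.3 and 15.7 TPM in the WT lines on day 8. SOX1 was called lower in these 4 comparisons. With IWP2 on day 8 both KO lines, at 1.96 and 2.77 TPM, lay below both WT lines, at 10.6 and 9.90 TPM, but it was not called (log2 fold change −1.75, adjusted p = 0.134). With IWP2 on day 4 the genotypes overlapped, and in the 4 ES libraries it had at most 0.264 TPM, so the labels are not checked by SOX1 there. SOX1 RNA was also higher on day 8 than in ES within KO (log2 fold change 1.69, 1.19 and 1.45 with IWP2, CT0.4 and CT1.0, all called). POU5F1, a defining gene of pluripotent cells, had at most 5.51 TPM in the 12 libraries of day 8, against 2399 to 2532 TPM in the 4 ES libraries. The 4 WT libraries of the CT labels on day 4 stood apart from the other 24: 17694 to 18233 genes reached 1 TPM in them, against 18876 to 20338 in the others. Size factors by median ratio ran from 0.818 to 0.926 in these 4 and from 0.920 to 1.14 in the others. The median log2 fold change of all genes, KO over WT, was 0.13 with CT0.4 and 0.19 with CT1.0 on day 4, and 0 and 0.01 after scaling. Member values on day 4 are to be read against that shift. On day 8 the KO libraries with CT1.0 had 30.3 and 27.7% of their TPM in ribosomal protein genes, against 21.6 and 22.9% in the WT libraries, and size factors of 0.921 and 0.959, against 1.03 and 1.004. The part of these differences in the results of either day was not tested beyond the scaling given beside them.

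With CT1.0 on day 4, poly(A)-selected RNA of 7 of 59 clustered genes was called higher in KO than in WT, near the share of all genes. All 7 are H2A or H2B genes, types that hold 16 and 15 of the 59. Of the replication-independent genes 5, including H2AFZ, were called lower. Testing used limma on log2(TPM + 1), and a gene is called where its adjusted p is under 0.05. Of the 70 members 14 were called, against 14.9% of the 27912 genes tested, so the share of members called lay near the background. Among the 59 clustered members 7 were called higher and 0 lower, against 12.4% of all genes called higher and 2.49% called lower, so the clustered count lay near the background too. Among the 11 replication-independent members 2 were called higher and 5 lower. On median-ratio scaled values the clustered members called were 6 higher and 0 lower, and the replication-independent ones 0 higher and 6 lower. The median log2 fold change was 0.16 over the clustered and −0.25 over the replication-independent members, beside 0.19 over all genes, and 0.07, −0.52 and 0.01 after scaling.

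HIST2H2BE (ENSG00000184678.10, chr1:149884459-149886652, minus strand), an H2B gene, had 26.6 and 12.01 TPM in KO lines 26 and 48, against 2.33 and 3.21 TPM in WT lines 1 and 2 (log2 fold change 2.34 ± 0.37 (SE), adjusted p = 0.000503). The KO lines lay well above both WT lines, and line 26 was the higher of them. HIST1H2AC (ENSG00000180573.9, chr6:26124145-26139116, plus strand), an H2A gene, had 12.7 and 9.24 TPM in the KO lines, against 1.44 and 1.703 TPM in the WT lines (log2 fold change 2.20 ± 0.26 (SE), adjusted p = 4.61e-05). HIST1H2BD had 23.2 and 11.7 TPM in the KO lines, against 3.16 and 3.51 TPM in the WT lines (log2 fold change 2.02 ± 0.40 (SE), adjusted p = 0.00277). In all 3 genes the KO and WT lines were well separated. Of all genes tested, 54.1% had no overlap between the KO and WT lines in this comparison, in either direction. HIST2H2BF had 3.25 and 2.73 TPM in the KO lines, against 0.336 and 0.244 TPM in the WT lines (log2 fold change 1.63 ± 0.49 (SE), adjusted p = 0.0343). HIST3H2BB (ENSG00000196890.4, chr1:228458107-228460470, plus strand) had 3.15 and 1.88 TPM in the KO lines, against 0.204 and 0.151 TPM in the WT lines (log2 fold change 1.55 ± 0.20 (SE), adjusted p = 9.75e-05). Both are H2B genes on chromosome 1, and both had at most 0.336 TPM in the WT lines. HIST2H2BF overlaps FCGR1A on the opposite strand, and no source used here says whether the libraries keep strand. The remaining called members were HIST1H2BG (log2 fold change 1.19, adjusted p = 0.00177) and HIST3H2A, with 21.0 and 13.0 TPM in the KO lines, against 7.82 and 6.54 TPM in the WT lines (log2 fold change 1.10, adjusted p = 0.0203). HIST3H2A was no longer called on scaled values (adjusted p = 0.053). The most abundant clustered genes did not follow: HIST1H4J had 51.1 and 71.2 TPM in the KO lines, against 80.3 and 79.9 TPM in the WT lines and HIST1H2BK had 9.72 and 17.4 TPM in the KO lines, against 14.9 and 14.8 TPM in the WT lines, and neither was called.

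**Figure D2:**
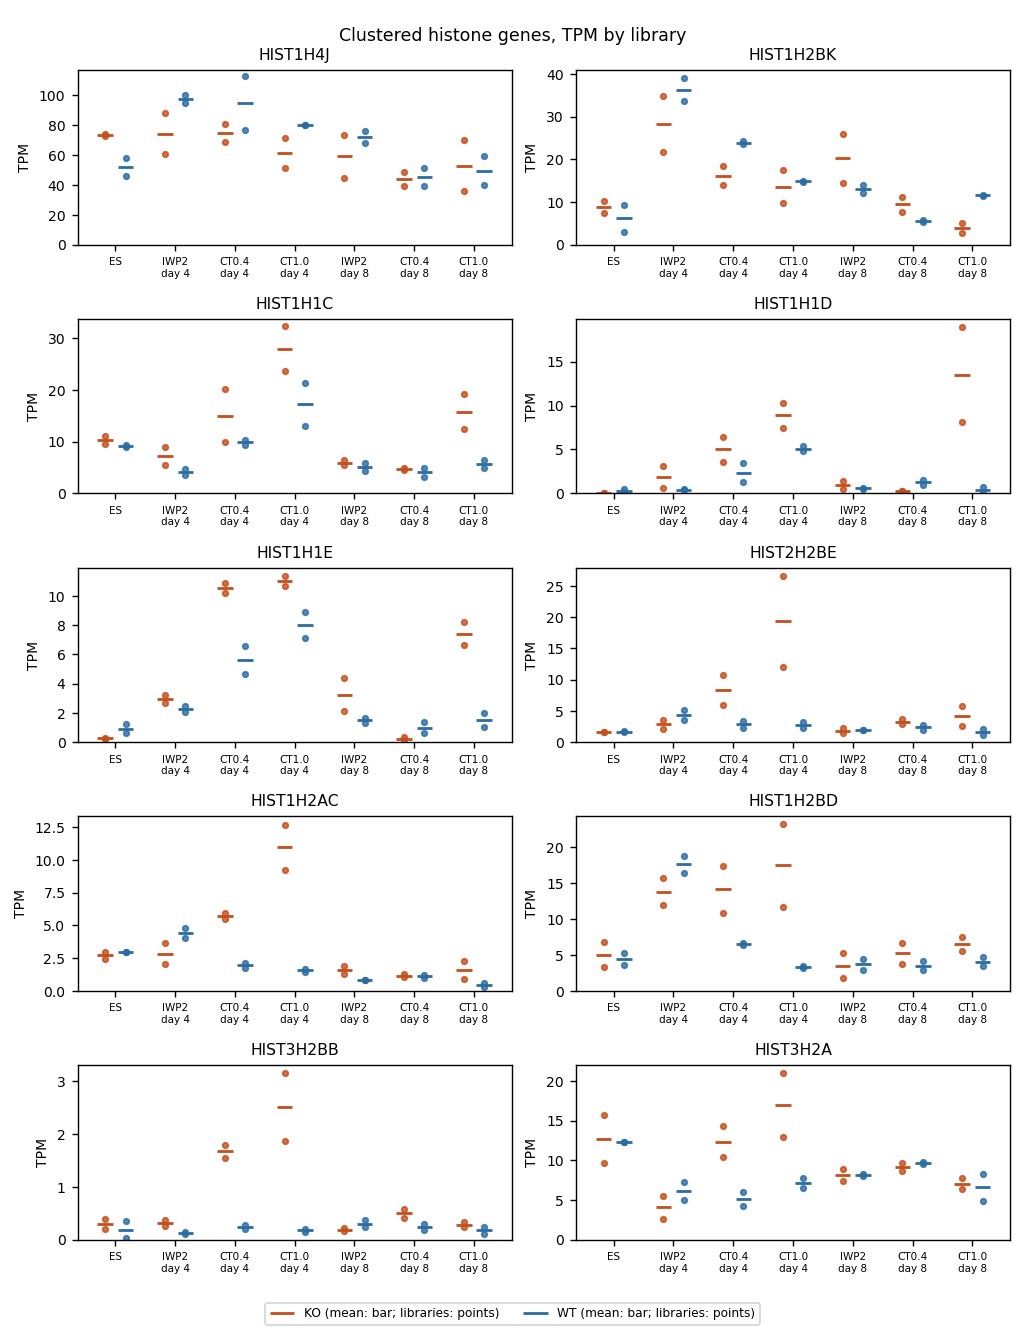
TPM of 10 clustered histone genes by group, KO left of WT, with a point per library and a bar at the mean of 2. HIST2H2BE, HIST1H2AC, HIST1H2BD and HIST3H2BB lie higher in KO than in WT with CT1.0 on day 4, as HIST1H1D and HIST1H1E do with CT1.0 on day 8.

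All 7 clustered genes called higher have an annotated 3′ UTR of at least 300 bases that holds, or in another transcript splices past, the stem-loop. Of 22 clustered members with a UTR of at least 300 bases, 21 of them with a loop match, 7 were called higher with CT1.0 on day 4. Their median log2 fold change, over all 22, was 0.43. Of 12 with a shorter UTR 0 were called (median 0.35), and of 25 with no annotated 3′ UTR 0 were called (median −0.17). With CT0.4 on day 4 the counts called higher were 4, 0 and 0 in the same order, with medians of 0.37, −0.02 and −0.22. On day 8 with CT1.0 they were 1, 1 and 2, with medians of −0.04, 0.28 and −0.12. In the set with no annotated 3′ UTR 2 members were also called lower on day 8. Of all genes 12.4%, 3.67% and 4.34% were called higher in these comparisons, in the order given. The medians of all genes were 0.19, 0.13 and −0.02. In both day 4 comparisons the WT side is the 4 libraries that stood apart in genes detected and size factors. The counts and medians of the sets are of values as deposited, and the part of that difference in them was not tested. The threshold of 300 bases was placed after the values had been seen, and the counts are a description with no test. The 3 sets also differed in level, with median mean TPM of 1.45, 2.13 and 0.904.

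**Figure D3:**
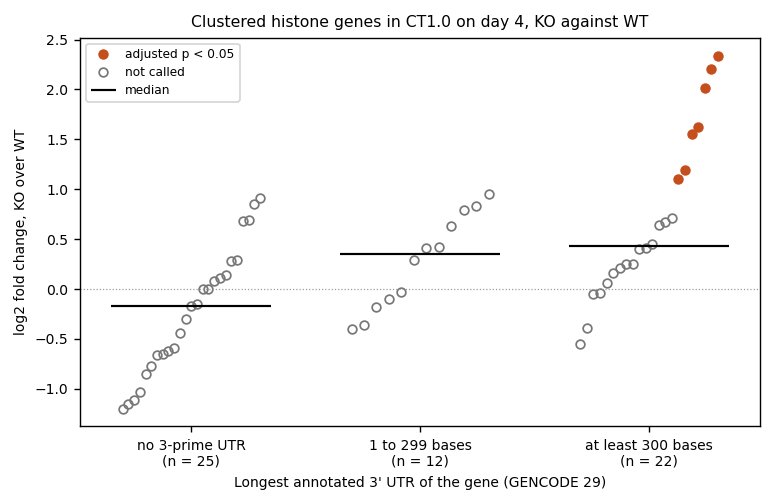
Log2 fold change, KO over WT, of the 59 clustered genes with CT1.0 on day 4 (vertical axis) by the length of the longest annotated 3′ UTR (25, 12 and 22 genes). Filled points are called at adjusted p under 0.05 and lines are medians; the 7 called genes all lie in the set with at least 300 bases.

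Among the replication-independent genes, H2AFZ, the main H2A.Z gene, had 639.5 and 791 TPM in the KO lines, against 1121 and 1080.0 TPM in the WT lines with CT1.0 on day 4 (log2 fold change −0.63 ± 0.11 (SE), adjusted p = 0.00119). Both KO lines were below both WT lines. H2AFV, the other H2A.Z gene, also fell (log2 fold change −0.26, adjusted p = 0.0126), as did H2AFY2, which encodes macroH2A2, a variant found on silenced chromatin (−0.41, adjusted p = 0.0163). H2AFX fell by 0.52 on the log2 scale (adjusted p = 0.0326). Of the H3.3 genes, H3F3A fell (log2 fold change −0.25, adjusted p = 0.0191) and H3F3B was called higher as deposited (0.26, adjusted p = 0.0492) but stood at −0.013 after scaling. H1F0 (ENSG00000189060.5, chr22:37805093-37807436, plus strand), which encodes H1.0, the linker histone known to build up in cells that stop dividing, had 509 and 309 TPM in the KO lines, against 128 and 145 TPM in the WT lines (log2 fold change 1.54, adjusted p = 0.0341; 0.0842 scaled). Line 26 was above line 48 for H1F0 in all 6 KO groups of days 4 and 8. Leaving out 1 line at a time changed how many of these calls were kept. With only the 4 libraries compared in the fit, 2 members were called. Only 3 were called when either WT line was left out, 10 when KO line 26 was and 15 when KO line 48 was. The lone library left in a group was assumed to vary like the other groups. HIST1H2AC and HIST3H2BB were called whichever line was left out, with adjusted p of at most 0.024 and 0.0128.

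CT0.4 on day 4 gave a smaller set of calls. Here 7 members were called, against 4.24% of all genes, 4 clustered genes higher and 0 lower, and 2 replication-independent genes higher and 1 lower. In 44.7% of all genes the KO and WT lines did not overlap, in either direction. Of all genes, 3.67% were called higher and 0.566% lower. After scaling the split was 3 higher and 1 lower among clustered, and 0 higher and 2 lower among replication-independent members. HIST1H2AC had 5.49 and 5.95 TPM in the KO lines, against 1.74 and 2.14 TPM in the WT lines (log2 fold change 1.19 ± 0.26 (SE), adjusted p = 0.0152), again with both KO lines above both WT lines. HIST3H2BB had 1.79 and 1.55 TPM in the KO lines, against 0.201 and 0.284 TPM in the WT lines (log2 fold change 1.10 ± 0.20 (SE), adjusted p = 0.00466). HIST3H2A and HIST1H2BG were called higher with log2 fold changes of 1.12 and 0.98 (adjusted p = 0.0449 and 0.0202). HIST2H2BE, which led with CT1.0, had 10.7 and 5.96 TPM in the KO lines, against 2.29 and 3.39 TPM in the WT lines here and was not called. H1FX, a linker histone gene, and H2AFJ, which encodes the H2A.J variant, were called higher as deposited (0.85 and 0.53, adjusted p = 0.0378 and 0.0388) but not after scaling (0.0984 and 0.175). H1FX overlaps H1FX-AS1 on the opposite strand. H2AFZ had 802 and 942 TPM in the KO lines, against 1157 and 1159 TPM in the WT lines (log2 fold change −0.41 ± 0.11 (SE), adjusted p = 0.0438). With only the 4 libraries compared in the fit no member was called. No call held whichever line was left out: leaving out either WT line gave 0 calls, leaving out KO line 26 gave 2 and leaving out KO line 48 gave 6.

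With CT1.0 on day 8, the clustered genes called higher in KO than in WT were mostly linker histone genes, and the macroH2A genes were called lower. Called members numbered 12, against 14.3% of all genes: 4 clustered genes higher and 2 lower, where 4.34% of all genes were called higher and 9.96% lower, and 2 replication-independent genes higher and 4 lower. The counts of all members called and of clustered genes called higher lay near these shares. After scaling the splits were 4 higher and 1 lower, and 3 higher and 3 lower. Of the 4 clustered H1 members, 3 were called higher. HIST1H1D (ENSG00000124575.6, chr6:26234268-26234933, minus strand), which encodes H1.3, had 18.9 and 8.11 TPM in KO lines 26 and 48, against 0.729 and 0 TPM in WT lines 1 and 2 (log2 fold change 3.36 ± 0.45 (SE), adjusted p = 0.00019). The KO lines differed widely from each other but both lay above WT, where line 2 was listed at 0. HIST1H1E, which encodes H1.4, had 8.20 and 6.64 TPM in the KO lines, against 1.05 and 1.96 TPM in the WT lines (log2 fold change 1.77 ± 0.28 (SE), adjusted p = 0.000576). HIST1H1C, which encodes H1.2, had 19.2 and 12.4 TPM in the KO lines, against 4.86 and 6.41 TPM in the WT lines (log2 fold change 1.32 ± 0.31 (SE), adjusted p = 0.00869). The replication-independent linker gene H1F0 had 403 and 222 TPM in the KO lines, against 69.1 and 89.7 TPM in the WT lines (log2 fold change 1.91 ± 0.46 (SE), adjusted p = 0.0108), so 4 linker histone genes in all were called higher. The other linker genes were not: H1FX had 201 and 188 TPM in the KO lines, against 151 and 213 TPM in the WT lines, and HIST1H1B was under 1 TPM on average. The summed TPM of the 4 clustered H1 members was 46.6 and 27.3 in KO lines 26 and 48, against 6.64 and 8.79 in WT lines 1 and 2. With CT1.0 on day 4 this sum had been 45.7 and 52.8 in the KO lines, against 37.5 and 26.5 in the WT lines. By group means it was thus lower on day 8 than on day 4 in both genotypes, at 37.0 after 49.2 in KO and 7.71 after 32.0 in WT. The annotated models of HIST1H1C and HIST1H1D have no 3′ UTR, and that of HIST1H1E has 57 bases with no loop match.

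The clustered genes called lower on day 8 with CT1.0 were HIST1H2BK and HIST2H2AC. HIST1H2BK had 5.05 and 2.83 TPM in the KO lines, against 11.7 and 11.5 TPM in the WT lines (log2 fold change −1.38 ± 0.38 (SE), adjusted p = 0.0229). HIST2H2AC had 4.95 and 10.1 TPM in the KO lines, against 14.99 and 16.3 TPM in the WT lines (log2 fold change −1.03 ± 0.33 (SE), adjusted p = 0.0484; 0.071 scaled) and shares 40% of its stretches with HIST2H2AA4. HIST1H2AC was called higher once more, at low levels of 2.30 and 0.931 TPM in the KO lines, against 0.566 and 0.276 TPM in the WT lines (log2 fold change 0.84, adjusted p = 0.0369). H2AFY, which encodes macroH2A1, had 128 and 174 TPM in the KO lines, against 244 and 238 TPM in the WT lines (log2 fold change −0.69 ± 0.14 (SE), adjusted p = 0.00318). H2AFY2 (ENSG00000099284.13, chr10:70052796-70112280, plus strand) had 75.2 and 102 TPM in the KO lines, against 135 and 137 TPM in the WT lines (log2 fold change −0.63 ± 0.11 (SE), adjusted p = 0.00111). In both macroH2A genes line 26 was the lowest of the 4 libraries and no KO line reached a WT line. Of all genes, 50.5% had no overlap between the KO and WT lines here, in either direction. H2AFX fell by 0.59 (adjusted p = 0.0181), and H2AFV fell by 0.33 (adjusted p = 0.0036; 0.0819 scaled). H3F3B was called higher (0.26, adjusted p = 0.045). HIST1H1D alone was called whichever line was left out, with adjusted p of at most 0.0399, and HIST1H1E was lost only without WT line 1 (0.0625). Leaving out WT line 1 or 2 gave 1 or 2 calls, leaving out KO line 26 gave 5 and leaving out KO line 48 gave 12. With only the 4 libraries compared in the fit no member was called.

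In the other KO and WT pairs no member was called by limma. At an unadjusted p under 0.05 there were 7 members on day 0, 9 with IWP2 on day 4, 1 with IWP2 on day 8 and 8 with CT0.4 on day 8. Of all genes, 10.8%, 8.3%, 5.04% and 9.28% had an unadjusted p under 0.05 in these comparisons, and 0.219%, 0.043%, 0.0609% and 0.416% were called at an adjusted p under 0.05. HIST1H1D had 0.327 and 0.326 TPM in the KO lines, against 1.003 and 1.503 TPM in the WT lines with CT0.4 on day 8 and 1.45 and 0.505 TPM in the KO lines, against 0.483 and 0.651 TPM in the WT lines with IWP2 on day 8. The KO effect on day 8 differed between labels for few members. CT1.0 minus IWP2 gave 2 members, HIST1H1D and H2AFY2, against 3.22% of all genes. CT1.0 minus CT0.4 gave 4, HIST1H1D, HIST1H1E, HIST1H2BK and H2AFY2, against 4.6%. CT0.4 minus IWP2 gave 0 by limma, with 6 at an unadjusted p under 0.05, against 6.6% of all genes, and 0.147% of all genes were called.

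**Figure D4:**
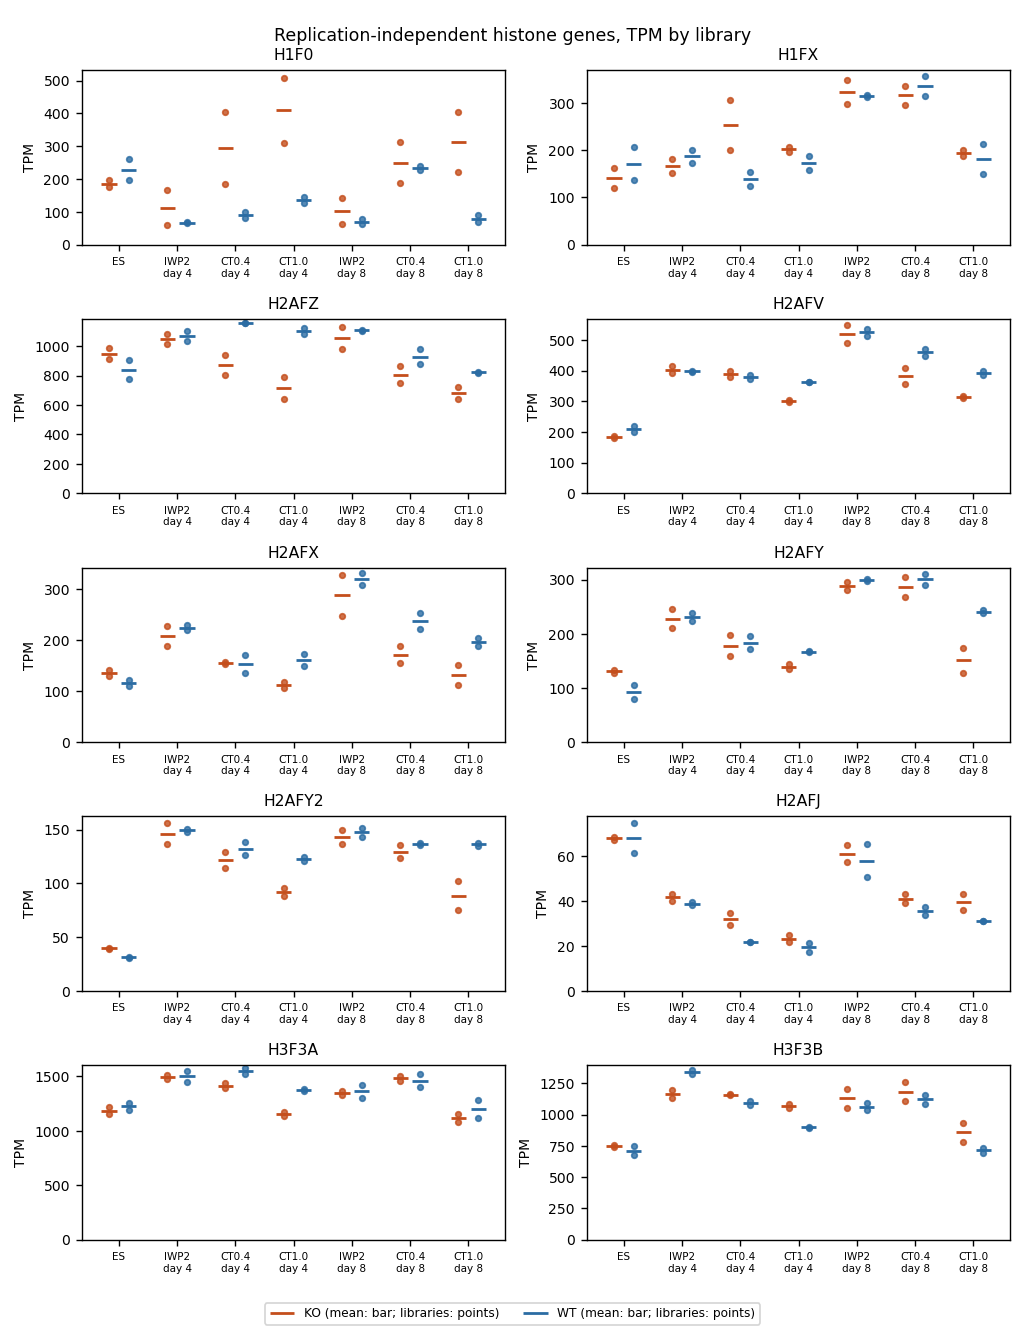
TPM of 10 replication-independent histone genes by group, KO left of WT, with a point per library and a bar at the mean of 2. H2AFY2 and H2AFV stand lowest in ES, H2AFJ stands highest in ES and with IWP2 on day 8, and with CT1.0 on day 8 the KO libraries lie below WT for H2AFY and H2AFY2.

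On day 8 against ES, H2AFY2 and H2AFV rose under every label in both genotypes, and H2AFJ fell with both CT labels. The 3 day 8 comparisons of a genotype share its ES libraries, so their values are given side by side. The members called were 13, 16 and 12 in KO and 12, 18 and 10 in WT with IWP2, CT0.4 and CT1.0. Of all genes, 39.6%, 42.2% and 40.3% were called in KO (24.8%, 26% and 19% higher, 14.8%, 16.2% and 21.3% lower). In WT 36.9%, 40.3% and 35.8% were called (23.4%, 25% and 19.3% higher, 13.5%, 15.2% and 16.5% lower). These counts, 10 to 18 of 70, lie under the share of all genes in each comparison. The replication-independent members divided into 7 higher and 0 lower, 6 and 1, and 2 and 2 in KO, and 7 and 1, 7 and 1, and 4 and 2 in WT. After scaling they divided into 6 and 1, 5 and 2, and 2 and 2 in KO, and 6 and 2, 6 and 1, and 4 and 2 in WT. The clustered members divided into 5 higher and 1 lower, 3 and 6, and 2 and 6 in KO, and 2 and 2, 4 and 6, and 1 and 3 in WT. After scaling, which moved the median of all genes by up to 0.17, they divided into 3 and 7, 1 and 10, and 3 and 7 in KO, and 1 and 5, 3 and 8, and 0 and 4 in WT.

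H2AFY2 averaged 143 ± 9.34, 129 ± 8.20 and 88.5 ± 18.9 TPM in KO with IWP2, CT0.4 and CT1.0 on day 8, against 39.6 ± 0.232 TPM in KO ES (SD, n = 2 each). In WT it averaged 147 ± 6.37, 136 ± 1.03 and 136 ± 1.67 TPM on day 8, against 31.2 ± 0.893 TPM in WT ES. Its log2 fold changes were 1.83, 1.68 and 1.13 in KO and 2.20, 2.09 and 2.09 in WT, with adjusted p of at most 2.34e-07. H2AFY2 thus rose in all 6 comparisons. H2AFY rose in 5 of the 6, with log2 fold changes of 1.13 and 1.12 in KO with IWP2 and CT0.4, and 1.69, 1.69 and 1.38 in WT. In KO with CT1.0 it had 128 and 174 TPM, against 133 and 129 TPM in KO ES, and was not called. H2AFV rose in all 6, by 1.49, 1.05 and 0.76 in KO and 1.31, 1.12 and 0.90 in WT. These calls of H2AFY2 and H2AFV held whichever line was left out.

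H2AFZ was called lower in KO with CT1.0, where it had 639 and 721 TPM on day 8, against 989 and 911 TPM in KO ES (log2 fold change −0.48, adjusted p = 0.00183). H2AFX rose in all 3 WT comparisons (1.46, 1.04 and 0.76) and in KO with IWP2 (1.06). In KO with CT1.0 it had 112 and 151 TPM, against 130.0 and 142 TPM in KO ES, and the groups overlapped. H1FX and H3F3B rose with IWP2 and CT0.4 in both genotypes, H1FX by 1.20 and 1.17 in KO and 0.90 and 0.99 in WT, and neither was called with CT1.0. H2AFJ fell to 41.1 and 39.5 TPM in KO with CT0.4 and CT1.0, against 67.8 TPM in KO ES. In WT it fell to 35.6 and 30.9 TPM, against 68.0 TPM in WT ES. Its log2 fold changes were −0.71 and −0.77 in KO and −0.91 and −1.11 in WT. H1F0 fell in WT with IWP2 (−1.69) and CT1.0 (−1.51), and was called in no KO comparison with ES. H3F3A was called higher in 3 comparisons, by 0.25 in WT with CT0.4 and by 0.19 and 0.32 in KO with IWP2 and CT0.4, and in none of them after scaling. H2AFZ rose in WT with IWP2 (0.40) and was not called after scaling. The H1F0 calls, that of H2AFZ in WT with IWP2 and that of H2AFX in WT with CT1.0 were lost when either WT line was left out. H1FX was lost in WT without WT line 2, and in KO with CT0.4 without KO line 26.

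Among clustered genes HIST1H2BH, an H2B gene with a long annotated tail, was called higher in 5 of the 6 comparisons. Of these, WT with CT1.0 and KO with CT0.4 were lost on scaling. Only the calls with IWP2 held whichever line was left out. HIST1H2BH levels with IWP2 follow. It had 6.99 and 8.71 TPM in KO with IWP2 on day 8, against 3.11 and 2.27 TPM in KO ES (log2 fold change 1.26 ± 0.18 (SE), adjusted p = 2.29e-05). In WT with IWP2 it had 7.51 and 8.55 TPM, against 2.80 and 2.15 TPM in WT ES (log2 fold change 1.38 ± 0.18 (SE), adjusted p = 9.70e-06). The day 8 libraries lay above the ES libraries in both genotypes. Of all genes, 63% in KO and 62.5% in WT had no overlap between IWP2 on day 8 and ES, in either direction. HIST1H2AC fell in all 3 WT comparisons (−1.12, −0.90 and −1.49) and in KO with CT0.4 (−0.77). None of these HIST1H2AC calls held whichever line was left out. HIST1H2BJ had 0 and 0.712 TPM in KO with CT0.4 and 0.305 and 0.423 TPM with CT1.0, against 9.67 and 3.44 TPM in KO ES (log2 fold change −2.40 and −2.34). It was also called lower in KO with IWP2 (−1.32) and in WT with CT1.0 (−1.29), calls that were lost without WT line 1 or 2, and in KO also without KO line 26. HIST1H2AM, which shares 87.1% of its stretches with HIST1H3J, was called lower in KO with CT0.4 (−2.08) and CT1.0 (−1.48), and HIST1H2BL likewise (−1.36 and −1.53). The linker gene HIST1H1E rose in KO with IWP2 (1.69) and CT1.0 (2.73). HIST1H1D was called higher in KO with CT1.0 (adjusted p = 2.92e-06), and it was listed at 0 in both KO ES libraries, so no fold is given. HIST1H2BK rose with IWP2 in KO (1.08) and WT (1.15) and fell in KO with CT1.0 (−1.01). The rises were not called after scaling. HIST1H1C fell with CT0.4 in KO (−0.97) and WT (−1.03). HIST2H4A was called lower in WT with CT0.4 (−1.82) and higher in KO with IWP2 (1.13), and its reads cannot be told from those of its near-identical copy HIST2H4B. Their summed TPM averaged 2.83 in WT CT0.4 on day 8 and 7.42 in WT ES, and 10.9 in KO IWP2 on day 8 and 5.84 in KO ES. The other clustered genes called on day 8 were HIST1H2BG, HIST1H3D, HIST1H3F, HIST1H3G, HIST1H3H, HIST1H2AJ, HIST1H4I, HIST2H2AC, HIST3H2A and HIST3H3, and of these HIST3H3 and HIST1H3G were called in 3 comparisons and the others in 1. Leaving out WT line 1 or 2 gave 8 or 7, 10 or 10, and 6 or 4 calls over all members in WT with IWP2, CT0.4 and CT1.0. Leaving out KO line 26 or 48 gave 10 or 11, 12 or 12, and 12 or 14 in KO. HIST1H2BJ with both CT labels in KO, and HIST1H1E and HIST1H1D in KO, were called whichever line was left out.

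**Figure D5:**
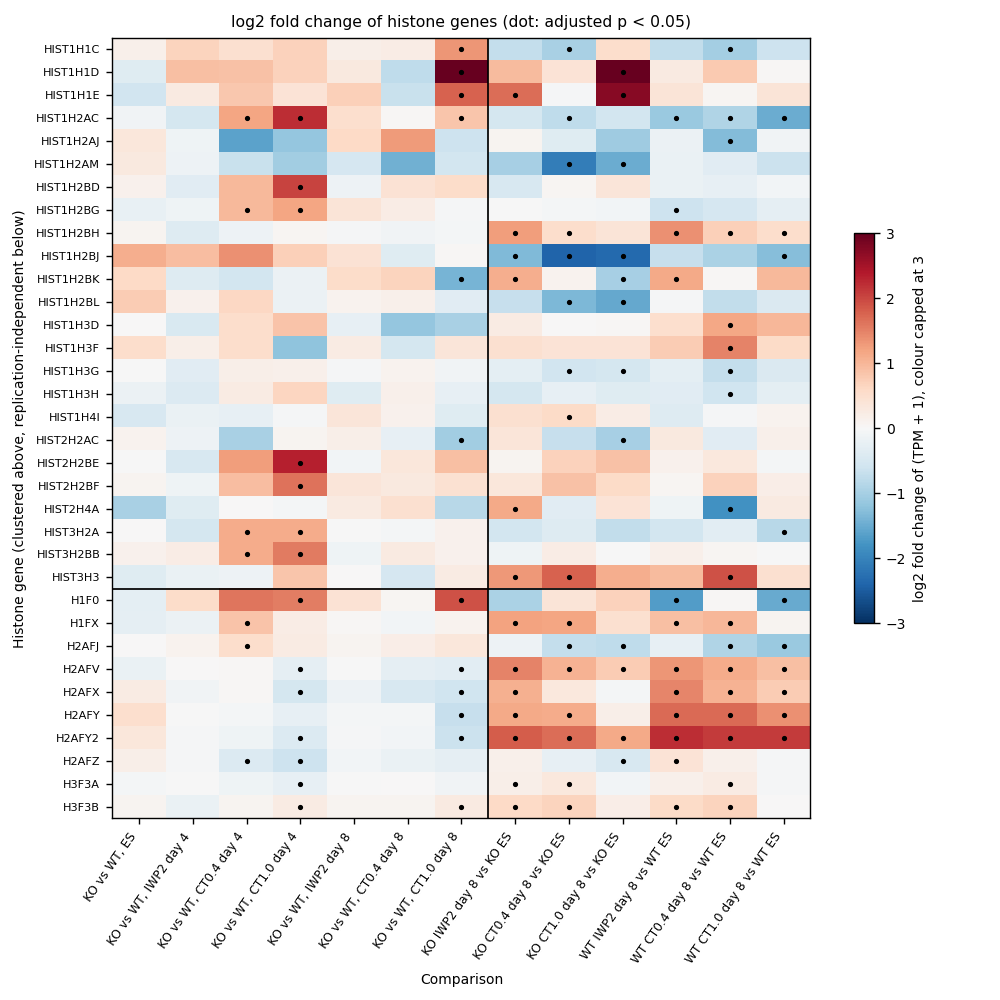
Log2 fold change of (TPM + 1), colour capped at 3, of the 34 histone genes called in at least 1 of 13 comparisons, 24 clustered above the line and 10 replication-independent below it. Columns left of the vertical line compare KO with WT and columns right of it compare day 8 with ES; a dot marks adjusted p under 0.05.

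On day 8 in WT cells few members were called between culture labels, most of them from the more abundant replication-independent class. CT0.4 against IWP2 gave 5 calls (12.2% of all genes), CT1.0 against IWP2 gave 7 (10.8%) and CT1.0 against CT0.4 gave 7 (14.3%), and each label's libraries enter 2 of these comparisons. Of these calls 3, 6 and 5 were of replication-independent members. The median mean TPM was 209 in this class and 1.49 among clustered members, and the scale used understates the change of low genes. The part of level in this split was not tested. The counts, out of 70 members, lie near or under the share of all genes in each comparison. The clustered sum averaged 153 TPM with CT0.4 and 209 TPM with IWP2, without overlap. The replication-independent sum averaged 5252 and 5265 TPM, with overlap. With CT1.0 the clustered and replication-independent sums averaged 177 and 3995 TPM. H1F0 had 226 and 238 TPM with CT0.4, against 63.0 and 77.3 TPM with IWP2 (log2 fold change 1.72 ± 0.46 (SE), adjusted p = 0.0203). With CT1.0 it had 69.1 and 89.7 TPM, a log2 fold change of −1.55 against CT0.4 (adjusted p = 0.0323; not called after scaling). H3F3B had 694 and 733 TPM with CT1.0, against 1093 and 1034 TPM with IWP2 and 1161 and 1087 TPM with CT0.4 (log2 fold change −0.57 and −0.65, adjusted p = 0.000161 and 2.68e-05). The CT1.0 libraries were the lowest of the 6. H2AFJ fell with CT0.4 (−0.68) and CT1.0 (−0.87) against IWP2, as did HIST1H2BH (−0.67 and −0.86). H2AFX (−0.70), H2AFZ (−0.43), H2AFV (−0.41) and H1FX (−0.81) were called lower with CT1.0 than with IWP2, and H2AFZ and H1FX were lost on scaling. H1FX (−0.90), H2AFV (−0.22), H3F3A (−0.28) and the testis H3 gene HIST3H3 (−1.44) were called lower with CT1.0 than with CT0.4, and H2AFV and H3F3A were lost on scaling. Among clustered genes HIST2H4A was lowest with CT0.4, as the pair HIST2H4A and HIST2H4B was, with a summed mean of 2.83 TPM there, 8.47 TPM with IWP2 and 9.45 TPM with CT1.0. H2AFB3, the lowest of the replication-independent members, was called only in CT0.4 against IWP2 and never exceeded 1.99 TPM. No call of these 3 comparisons held whichever line was left out. Without WT line 1 the counts were 2, 1 and 2, and without WT line 2 they were 0, 1 and 3, in the order given.

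Over the 16 comparisons of groups, 24 of 59 clustered and 11 of 11 replication-independent members were called at least once, against 69.5% of all genes. In at least 1 comparison of KO with WT, 12 clustered and 10 replication-independent members were called, against 27.3% of all genes. The 35 clustered members never called averaged 0.194 to 66.6 TPM (median 0.904), and 19 of them averaged under 1 TPM. They include HIST1H4J, the most abundant, and HIST2H2AA4. HIST2H2AA4 ranged from 0 to 21.3 TPM between libraries, while its sum with the near-identical HIST2H2AA3 had group means of 8.53 to 19.4 TPM.

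Part of a list of S-phase genes, and SLBP, fell in KO cells with CT1.0. With CT1.0 the counts of this and the following lists stand beside 12.4% of all genes called higher and 2.49% called lower on day 4. On day 8 with CT1.0 the shares were 4.34% called higher and 9.96% called lower. Counts with CT0.4 on day 4 stand beside 3.67% called higher and 0.566% called lower. Of 20 S-phase genes 14 were called lower and 0 higher on day 8 (median log2 fold change −0.55; 10 lower after scaling, −0.43), and 9 lower and 0 higher on day 4 (−0.40; 16 lower after scaling, −0.67). The medians over all genes were −0.02 and 0.19. UHRF1, a chromatin factor of replicating DNA, fell by 1.20 on day 8 and by 0.78 on day 4. MCM2 and CCNE2 fell by 0.79 and 0.85 on day 8, and CCNE1 and RRM2 by 0.75 and 0.75 on day 4. The summed S-phase TPM on day 8 was 1133 and 1500 in KO lines 26 and 48, against 1932 and 1942 in WT lines 1 and 2. RRM1 (−0.03) and CCNA2 (−0.13) were not called on day 8, nor MCM7 (−0.33) and MCM3 (−0.11) on day 4. With CT0.4 on day 4, 4 of the 20 were called lower and 0 higher (9 lower after scaling).

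SLBP, the protein that binds the histone stem-loop, had 37.8 and 37.7 TPM in the KO lines, against 52.7 and 54.1 TPM in the WT lines with CT1.0 on day 4 (log2 fold change −0.49, adjusted p = 0.0165). On day 8 it had 29.9 and 38.7 TPM in the KO lines, against 51.6 and 60.4 TPM in the WT lines (log2 fold change −0.70, adjusted p = 0.00191). Both KO lines were below both WT lines at both times. Of all genes, 54.1% on day 4 and 50.5% on day 8 had no overlap between the lines with CT1.0, in either direction. Of 16 genes of histone mRNA 3′ end formation and transcription, 2 were called higher and 2 lower on day 4 with CT1.0 (median 0.01; 0 and 5 after scaling) and 0 higher and 6 lower on day 8 (−0.27; 0 and 4 after scaling). NPAT, a coactivator of clustered histone genes (0.59), and SYMPK, a scaffold of 3′ end cleavage (0.45), were the higher ones on day 4. ERI1, a nuclease that trims histone mRNA ends, fell by 0.62 on day 8, and SRRT by 0.63. SNRPD3 (−0.07) and SRRT (−0.15) were not called on day 4. SYMPK was the 1 gene of the list called with CT0.4 on day 4, higher.

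Of 20 histone chaperones and depositors, 2 were called higher and 3 lower with CT1.0 on day 4 (median −0.06; 2 and 9 after scaling) and 0 higher and 9 lower on day 8 (−0.29; 0 and 6 after scaling). The share of chaperones called higher on day 4, 2 of 20, lay near that of all genes. ATRX, which places H3.3 on heterochromatin together with DAXX, had 87.3 and 78.6 TPM in the KO lines, against 21.8 and 21.7 TPM in the WT lines on day 4 (log2 fold change 1.88, adjusted p = 7.96e-05), with both KO lines far above both WT lines. CABIN1, a partner of the H3.3 chaperone HIRA, rose (0.87) and ASF1B, an H3 and H4 chaperone, fell (−0.70). On day 8 CHAF1A, which deposits histones behind the replication fork, fell by 0.88, DAXX by 0.83 and ASF1B by 0.76. NPM1 and NAP1L1, the most abundant that were not called, stayed uncalled at both times with CT1.0 (day 8 log2 fold change 0.09 and 0.03). With CT0.4 on day 4, 1 was called higher and 1 lower (1 and 7 after scaling).

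Of 12 mitosis genes, 1 was called higher with CT1.0 on day 4, TOP2A (0.51; 0 higher and 2 lower after scaling), and 3 lower on day 8, CDC20, PLK1 and MKI67 (−0.60, −0.53 and −0.47). CCNB1 (−0.24) and CDK1 (0.34) were not called on day 4. Of 10 genes that regulate staying in or leaving the cell cycle, 5 were called higher and 1 lower with CT1.0 on day 4 (1 and 2 after scaling). The list holds the cyclins CCND1 and CCND2, which promote division, so its counts do not measure exit. GADD45A had 12.8 and 9.42 TPM in the KO lines, against 4.28 and 3.17 TPM in the WT lines (log2 fold change 1.36, adjusted p = 0.000107), and CDKN1A, the cell cycle inhibitor p21, had 10.1 and 6.98 TPM in the KO lines, against 2.41 and 3.09 TPM in the WT lines (1.33, adjusted p = 0.0428). GADD45G fell by 1.23. On day 8, 1 of the 10 was called, CCND1, lower (−0.54; 1 higher and 0 lower after scaling). Of 4 other genes with histone names, CENPA and H2BFM were expressed enough to be tested, and neither was called in a comparison of KO with WT.

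Markers of cell types also moved with these comparisons. With CT1.0 on day 8 the summed TPM of 7 neural progenitor markers was 1521 and 1800 in KO lines 26 and 48, against 3230 and 2949 in WT lines 1 and 2, and 5 of the 7 were called lower and 1 higher. SOX1, the targeted gene, is among the 7 and among those called lower. The other 6 summed to 1520.3 and 1798 TPM in KO, against 3158 and 2869.9 TPM in WT, with 4 called lower and 1 higher. The 6 neuron markers summed to 148 and 339 TPM in KO, against 781 and 640 TPM in WT, with 4 called lower. The 6 surface ectoderm markers summed to 109 and 85.2 TPM in KO, against 47.3 and 55.2 TPM in WT, with 4 called higher. These 4 are the keratins KRT7, KRT19, KRT18 and KRT8, while TFAP2A (log2 fold change 0.47) and GATA3 (−0.28) were not called. From ES to day 8 with CT1.0 the keratins fell in WT, by log2 fold changes of −2.23 to −4.11. In KO these ran from −0.58 (KRT7, not called) to −3.30. Of 6 neural crest markers 2 were called higher (sums of 107 and 109 TPM in KO, against 130 and 133 TPM in WT), and of 6 pluripotency markers 1 was called lower (sums of 533 and 519 TPM in KO, against 537 and 484 TPM in WT). Of 6 mesendoderm markers 1 was expressed enough to be tested and was not called, and the list summed to at most 4.77 TPM in any group. On day 4 with CT1.0, 1 progenitor marker was called higher and 3 lower (sums of 1173 and 1338 TPM in KO, against 1507 and 1626 TPM in WT; without SOX1 1 higher and 2 lower, with sums of 1172 and 1335 TPM in KO, against 1423 and 1528 TPM in WT), and 1 surface ectoderm marker was called higher, with GATA3 listed at 0 in both groups. Their part in the histone results was not tested.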

How the data were processed

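RNA of 28 libraries of H9 cells was measured, 2 in each of 14 groups, grouped by the labels. Poly(A)+ RNA was extracted with TRIzol and sequenced in pairs on Illumina instruments, per the labels' protocols, which name more than one instrument and read length without saying which library ran on which. Per the submitters' processing notes, CASAVA 1.7 and Salmon 0.8.2 were used with hg38. The authors deposited gene-level TPM, estimates corrected for gene length and scaled to the same total in each library, so a level is a share of the library, and a rise of other genes lowers it. TPM keeps no depth, so depth is unknown and no counting interval is given. The strandedness of the libraries and the annotation are not given in the sources used here. All 70 member IDs, versions included, are in GENCODE 29, which supplied transcripts and positions.

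Differences were tested with limma 3.58.1 (R 4.3.3 with the package data.table, version 1.17.8) on log2(TPM + 1), with a trend, over 27912 genes that reached 1 TPM in at least 2 libraries and with all 14 groups in 1 fit (14 residual degrees of freedom). Fold changes are on that scale and understate the change of low genes. p-values were Benjamini-Hochberg adjusted over all genes within each of 19 comparisons, and a gene was called at an adjusted p under 0.05. The fit was checked on simulated data with known changes. The remaining steps used Python 3.11.15, pandas 2.3.3, numpy 2.4.6 and matplotlib 3.10.9. Alternatives were a pseudocount of 0.1, no filter on low values, protein-coding genes only, median-ratio scaling, scaling to protein-coding genes without ribosomal protein and mitochondrial genes (for sums), a fit of only the libraries compared, a log2 fold change of at least 1, a block for the line, leaving out each line, and the 4 WT libraries of the CT labels on day 4 left out.

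The members and the gene lists were chosen with earlier results of these data known. Named per comparison and class are up to 5 highest and 5 lowest called members with a log2 fold change of at least 1. Named throughout are the 8 clustered members of highest mean TPM, every replication-independent member and SOX1. Of each list, up to 3 called and 2 uncalled genes are named. Genes named beyond this rule were chosen after their values were seen.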

Additional observations from a re-analysis of the deposited data

Results flagged for a closer look

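The KO effect on day 8 differed between culture labels in 6 tests of that difference over 4 members. Of 70 members 2 were called for CT1.0 minus IWP2, against 3.22% of all genes. For CT1.0 minus CT0.4 4 were called, against 4.6% of all genes. Both counts thus lay near the background. For HIST1H1D the log2 fold change, KO over WT, was 3.36 with CT1.0 and 0.30 with IWP2, a difference of 3.06 ± 0.63 (SE, limma adjusted p = 0.0178). Against the −0.76 with CT0.4 the difference was 4.11 ± 0.63 (adjusted p = 0.00283). HIST1H1E, another linker histone gene, had 1.77 with CT1.0 and −0.66 with CT0.4, a difference of 2.43 ± 0.39 (adjusted p = 0.00325). HIST1H2BK had the opposite sign, with −1.38 with CT1.0 and 0.66 with CT0.4, a difference of −2.04 ± 0.54 (adjusted p = 0.0424). H2AFY2 had −0.63 with CT1.0, −0.04 with IWP2 and −0.08 with CT0.4. Its differences were −0.59 ± 0.15 (adjusted p = 0.0444) and −0.56 ± 0.15 (adjusted p = 0.0469). The CT1.0 libraries enter every one of these tests. Leaving out either WT line ended all 6 calls. Leaving out KO line 26 ended all but HIST1H1D in CT1.0 minus CT0.4, and leaving out KO line 48 ended only HIST1H2BK. On median-ratio scaled values HIST1H2BK and both tests of H2AFY2 were no longer called.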

How the results depend on the processing

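With 2 libraries a group and unknown depth, low members are imprecise, and the counts rest on a spread shared over all 14 groups. Fitting only the libraries compared gave 0 calls instead of 7 for KO against WT with CT0.4 on day 4, 2 instead of 14 with CT1.0 on day 4, and 0 instead of 12 with CT1.0 on day 8. It gave 11 instead of 18 for WT CT0.4 on day 8 against ES and 6 instead of 13 for KO IWP2. In WT on day 8 it gave 1 instead of 5 for CT0.4 against IWP2, 0 instead of 7 for CT1.0 against IWP2 and 1 instead of 7 for CT1.0 against CT0.4. The differences of KO effects gave 0 instead of 2 (CT1.0 minus IWP2) and 0 instead of 4 (CT1.0 minus CT0.4). Fewer residual degrees of freedom enter such fits by construction. Requiring a log2 fold change of at least 1 left, in the order of the KO and WT pairs above, 3, 8 and 6 calls. It left 10 for WT CT0.4 and 6 for WT CT1.0 against ES, 8 for KO CT0.4 against ES, 3, 0 and 3 for the WT labels on day 8, and 1 for CT1.0 minus IWP2. Without the filter on low values there were 3 calls with CT0.4 on day 4, and 1 and 2 differences of KO effects. With protein-coding genes only there were 11 calls with CT0.4 on day 4 and 4 for CT1.0 minus IWP2. Median-ratio scaling gave 4 calls for WT CT1.0 against CT0.4 on day 8, and 1 and 2 differences of KO effects. It reversed H3F3B in KO against WT with CT1.0 on day 4 (0.26 became −0.013), H3F3A in WT CT0.4 on day 8 against ES (0.25 became −0.011) and H3F3A in KO IWP2 on day 8 against ES (0.19 became −0.096). Without the 4 WT libraries of the CT labels on day 4 there were 1 and 2 differences of KO effects. Scaled to protein-coding genes without ribosomal protein and mitochondrial genes, the log2 ratio of the clustered sums, KO over WT, was 0.06 with CT0.4 and 0.26 with CT1.0 on day 4. A pseudocount of 0.1 kept every count within 1.5 times.

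Leaving out 1 line at a time gave, for KO against WT, 0 to 0 calls on day 0, 0 to 1 with IWP2, 0 to 6 with CT0.4 and 3 to 15 with CT1.0 on day 4, and 0 to 0 with IWP2, 0 to 1 with CT0.4 and 1 to 12 with CT1.0 on day 8. Against ES, counts ran from 10 to 13, 12 to 14 and 11 to 14 in KO and from 7 to 13, 10 to 19 and 4 to 12 in WT, with IWP2, CT0.4 and CT1.0. In WT on day 8 they ran from 0 to 5 (CT0.4 against IWP2), 1 to 6 (CT1.0 against IWP2) and 2 to 7 (CT1.0 against CT0.4). Differences of KO effects ran from 0 to 0, 0 to 3 and 0 to 5. In each such fit the lone library left in a group is assumed to vary like the other groups.

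Line numbers recur within a genotype. Deviations from group means of same-numbered libraries correlated at −0.0937 to 0.0783 over 21 pairs of WT groups and at −0.0572 to 0.204 over 21 pairs of KO groups. Of these, 0 in WT and 8 in KO were over 0.1, so some KO groups deviated together, but not every pair did and the number was not taken to pair the samples. With the line as a replicate block, the count for CT1.0 minus IWP2 was 4 instead of 2, and no other count moved by over 1.5 times.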
